A study of Mus musculus with 80 samples.

Results

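Nuclear RNA of hepatocytes from fed mice was compared between 2 times of the same dark phase, zeitgeber time (ZT) 20 and ZT15, where ZT12 is lights off. The comparison uses 8 of the 80 libraries of the series, 4 at ZT20 and 4 at ZT15, chosen by their labels alone: fed ad libitum, hepatocyte line, tagged nuclei, 8 h and 3 h after ZT12. The series was built to follow fasting. Female mice of a HEP-INTACT line and a MAC-INTACT line, which carry a purification tag on the nuclei of hepatocytes or of liver macrophages, lost their food at ZT12 for 3, 8, 16 or 24 h, and fed mice were killed beside them at each time. Tagged nuclei were captured on beads and their RNA was sequenced in 64 libraries, while 16 further libraries, each pooled from 4 mice, came from nuclei of liver that were not purified. The groups set beside the 8 libraries are fasted hepatocytes at 8 h and 3 h of fasting (4 each), fed macrophages at ZT20 and ZT15 (4 each), fed hepatocytes at ZT4 and ZT12 (4 each), and 1 fed pool per time and line. The mice of all groups carry a tag. No source used here gives the promoter that drives the tag, the strain, the age or the number of mice behind 1 tagged library. The p-values therefore describe library-to-library spread, part of which may be technical.

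The liver clock is a transcriptional loop. BMAL1 (gene Arntl), paired with CLOCK or its relative NPAS2, activates genes through E-boxes, among them the Per and Cry genes, whose proteins then repress the pair, and Nr1d1 and Nr1d2, whose proteins REV-ERBα and REV-ERBβ repress Arntl and Npas2 through ROR elements. The related factors DBP, TEF and HLF act on D-boxes later in the cycle and NFIL3 opposes them. Mice take most of their food at night, and in the liver the fed state favours glucose use, lipid synthesis and protein secretion. RNA inside the nucleus is rich in unspliced transcripts and follows changes in transcription more closely than the RNA of whole cells.

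The 4 libraries of ZT20 held 14148894 to 19356463 counts and the 4 of ZT15 held 18586699 to 27788128, over 20105 listed genes, of which 12942 passed the filter on low counts. Spearman correlations over these genes ran from 0.990 to 0.994 within ZT20, from 0.989 to 0.994 within ZT15 and from 0.985 to 0.991 between the times. No pair of libraries agreed within sampling noise, since the chi-square per degree of freedom was at least 21.2. The first principal component of the 8 libraries, with 34.5% of the variance, separated the times. Of 23 hepatocyte markers none was called by edgeR in a fit to all 32 hepatocyte libraries (4 higher and 1 lower at an unadjusted p under 0.05). Their summed level was 18516 to 21501 CPM (counts scaled to an equal library total) at ZT20, against 18899 to 20925 CPM at ZT15. Marker genes of other cells were present at a lower level. The 28 Kupffer cell and macrophage markers summed to 355 to 417 CPM at ZT20, against 400.1 to 449 CPM at ZT15. Most of this sum lay in Mertk, Nr1h3 and Slc40a1, with means of 141, 88.3 and 80.7 CPM over the 8 libraries. Clec4f and Vsig4 averaged 7.99 and 6.88 CPM. Which cells the RNA of these genes came from was not tested, so the sum does not measure macrophage RNA. The 21 sinusoidal endothelial markers summed to 231 to 323 CPM at ZT20, against 198 to 343 CPM at ZT15. Their part in the results below was not tested. Levels of single genes are given as CPM after TMM adjustment. None of the 9 marker lists held a gene called in that fit, with 1 Kupffer gene lower at an unadjusted p under 0.05 and 1 pancreatic gene higher. In the fit to the 8 libraries alone, 1 hepatocyte marker and 1 Kupffer cell marker were called lower. The haemoglobin genes Hba-a1, Hba-a2 and Hbb-bs, the neutrophil gene Retnlg and 8 of 12 pancreatic acinar genes were at 0 in all 8 libraries, although Cela1 averaged 5.22 CPM. In bulk nuclei, fewer cells of a type and less RNA per cell cannot be told apart. The titles also carry a number whose meaning is not stated. It is higher in every ZT20 library than in every ZT15 library, so what it stands for cannot be told apart from time of day.

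Few genes moved beyond the spread shared by all hepatocyte groups between the early and the later night. In a quasi-likelihood test of edgeR fitted to all 32 tagged hepatocyte libraries, 59 of 12942 genes (0.456%) passed an adjusted p of 0.05, 30 higher (0.232%) and 29 lower (0.224%) at ZT20. Of the 59, 24 changed by more than 2-fold and 58 had no overlap between the 8 values. The genes that rose had a median length in the genome of 36372 bases, those that fell 81355 bases, and all genes tested 24944.5 bases. A fit to the 8 libraries alone, whose spread is estimated from the fed night only, called 825 of 12339 genes (6.69%), 395 higher (3.20%) and 430 lower (3.48%), including 56 of the 59. No overlap between the values at ZT20 and at ZT15 was found for 1816 of 12942 genes (14.0%), 880 higher and 936 lower. At an unadjusted p under 0.05, 900 of the 12942 genes were higher and 765 lower in the fit to 32 libraries. In the fit to the 8 libraries 1485 were higher and 1400 lower. The called and the unadjusted counts of the lists below are to be read beside these totals, since many lists lie near the same shares. The counts of both fits fell when single libraries were left out. The 59 became 20 without ZT20 replicate 1, 34 without ZT20 replicate 3 and 38 without ZT20 replicate 4. They became 37 without ZT15 replicate 1, 19 without ZT15 replicate 3 and 28 without ZT15 replicate 4. The 825 became 313 without ZT20 replicate 1, 307 without ZT15 replicate 3 and 337 without ZT15 replicate 4. Each call is therefore given below with its fit, and the 59 come first.

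The gene that rose most was the clock gene Npas2, and behind it stood an enzyme, receptors and regulators of unlike function. Npas2 (NM_008719, chr1:39194272-39363240 in mm10) had 274, 214, 427 and 401 CPM at ZT20, against 51.6, 8.64, 7.31 and 12.3 CPM at ZT15 (log2 fold change 4.04 ± 0.61, adjusted p = 0.00114). All 4 values of ZT20 lay above all 4 of ZT15, and ZT15 replicate 1 stood above the other ZT15 libraries. Loxl4, an enzyme that cross-links collagen and elastin, had 23.8, 28.3, 32.4 and 30.1 CPM at ZT20, against 5.25, 2.96, 2.49 and 5.45 CPM at ZT15 (log2 fold change 2.83 ± 0.49, adjusted p = 0.00327). Wsb1, a substrate receptor of a ubiquitin ligase, had 104, 82.3, 109 and 92.4 CPM at ZT20, against 25.3, 17.9, 25.9 and 26.4 CPM at ZT15 (log2 fold change 2.02 ± 0.35, adjusted p = 0.00327). For both genes every ZT20 library lay far above every ZT15 library. Ndrg1, a gene of the stress and hypoxia response, had 19.1, 13.2, 20.9 and 20.5 CPM at ZT20, against 6.28, 4.13, 4.06 and 4.18 CPM at ZT15 (log2 fold change 1.98 ± 0.36, adjusted p = 0.00522). Neb, which encodes the giant actin-binding protein nebulin of muscle filaments, had 258, 208, 282 and 165 CPM at ZT20, against 102, 90.98, 94.8 and 69.2 CPM at ZT15 (log2 fold change 1.36 ± 0.24, adjusted p = 0.00327). Neither gene had overlapping values, and the ZT15 libraries of Ndrg1 were tight except for replicate 1.

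Receptors and nucleic acid sensing were also among the genes that rose. Lifr, the receptor of leukaemia inhibitory factor, had 2005, 634, 1405 and 897 CPM at ZT20, against 332, 399, 584 and 546 CPM at ZT15 (log2 fold change 1.41 ± 0.27, adjusted p = 0.0085). Its ZT20 libraries were unlike, with replicates 1 and 3 far above replicates 2 and 4, and replicate 2 lay just above the highest ZT15 library. The orphan adhesion receptor Adgrf1 had 19.98, 9.07, 12.4 and 16.2 CPM at ZT20, against 2.27, 2.53, 4.65 and 3.01 CPM at ZT15 (log2 fold change 2.22 ± 0.45, adjusted p = 0.0168). Its lowest ZT20 library was well above its highest ZT15 library. Adck5, a putative mitochondrial kinase, had 26.4 to 55.7 CPM at ZT20, against 10.6 to 17.9 CPM at ZT15 (log2 fold change 1.56 ± 0.30, adjusted p = 0.0108), and it overlaps Cpsf1 on the other strand. Zbp1, an interferon-induced sensor of nucleic acids in the Z form, had 9.65 to 20.7 CPM at ZT20, against 3.31 to 6.94 CPM at ZT15 (log2 fold change 1.53 ± 0.34, adjusted p = 0.0317). Ppard, the nuclear receptor PPARδ that regulates fatty acid use, had 197, 234, 246 and 274 CPM at ZT20, against 144, 97.5, 106 and 116 CPM at ZT15 (log2 fold change 1.04 ± 0.14, adjusted p = 0.000264), without overlap. Npas2, Loxl4, Wsb1, Ndrg1, Neb and Ppard kept the call when any 1 of the 8 libraries was left out. Lifr lost its call without ZT20 replicate 1 (adjusted p = 0.0848). Adgrf1 lost its call without ZT15 replicate 1, ZT15 replicate 2, ZT20 replicate 1 or ZT15 replicate 4 (adjusted p 0.06 to 0.0913). Adck5 lost its call without ZT15 replicate 3 or ZT15 replicate 4 (adjusted p 0.0579 to 0.078). Zbp1 lost its call in 7 of 8 fits (adjusted p 0.0519 to 0.137), all but that without ZT20 replicate 2. In the fit to the 8 libraries alone Lifr missed the threshold (adjusted p = 0.0536).

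Among the genes that fell, the clock repressor Nr1d2 had the smallest p of all genes tested. Nr1d2 (NM_011584, chr14:18204056-18239106 in mm10) had 19.9, 19.1, 14.9 and 19.6 CPM at ZT20, against 56.004, 75.5, 75.7 and 63.6 CPM at ZT15 (log2 fold change -1.88 ± 0.20, adjusted p = 3.73e-06). Both groups were tight and did not overlap. Serpine2, a secreted inhibitor of serine proteases, had 1.56, 2.81, 1.08 and 3.26 CPM at ZT20, against 3.93, 15.7, 9.85 and 14.7 CPM at ZT15 (log2 fold change -2.32 ± 0.40, adjusted p = 0.00327). Its values did not overlap, but ZT15 replicate 1 lay close to the highest ZT20 library. Hspa4l, a heat shock protein of the HSP110 family, had 42.8, 47.5, 41.7 and 33.9 CPM at ZT20, against 64.6, 112, 101 and 94.3 CPM at ZT15 (log2 fold change -1.17 ± 0.20, adjusted p = 0.00327). P4ha2, a subunit of the prolyl hydroxylase that matures collagen, had 6.01, 6.604, 4.604 and 6.51 CPM at ZT20, against 9.18, 15.7, 12.9 and 15.8 CPM at ZT15 (log2 fold change -1.17 ± 0.17, adjusted p = 0.000444). For both genes the ZT20 libraries lay under all ZT15 libraries, of which replicate 1 was the lowest. Caln1, a neuronal calcium-binding protein whose gene overlaps the antisense transcript A330070K13Rik, had 206, 212, 177 and 175 CPM at ZT20, against 353, 349.7, 499.9 and 379 CPM at ZT15 (log2 fold change -1.04 ± 0.20, adjusted p = 0.0111).

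The remaining 5 of the 10 lowest genes were ligands, receptors, matrix and cilium genes. Bmp7, a secreted ligand of the TGF-β superfamily, had 4.06 to 4.59 CPM at ZT20, against 7.38 to 10.99 CPM at ZT15 (log2 fold change -1.15 ± 0.25, adjusted p = 0.0308). Nrp2, a co-receptor for semaphorins and vascular growth factors, had 52.7 to 83.8 CPM at ZT20, against 153 to 205 CPM at ZT15 (log2 fold change -1.27 ± 0.29, adjusted p = 0.0391). Dact1, a regulator of Wnt signalling, had 1.61 to 3.62 CPM at ZT20, against 6.902 to 10.3 CPM at ZT15 (log2 fold change -1.67 ± 0.38, adjusted p = 0.0417). None of these 3 genes overlapped between the times. Col27a1, a fibrillar collagen, had 116 to 169 CPM at ZT20, against 251 to 543 CPM at ZT15 (log2 fold change -1.495 ± 0.35, adjusted p = 0.0469). Cys1, which encodes the cilium protein cystin, had 8.61 to 20.4 CPM at ZT20, against 24.6 to 46.04 CPM at ZT15 (log2 fold change -1.47 ± 0.31, adjusted p = 0.0246). Nr1d2, Serpine2, Hspa4l and P4ha2 kept the call when any 1 of the 8 libraries was left out. Caln1 lost its call without ZT15 replicate 3 or ZT20 replicate 3 (adjusted p 0.0556 to 0.0848). Bmp7 lost its call in 7 of 8 fits (adjusted p 0.0519 to 0.123), all but that without ZT15 replicate 2. Nrp2 lost its call in 8 of 8 fits (adjusted p 0.051 to 0.166). Dact1 lost its call in 8 of 8 fits (adjusted p 0.0519 to 0.166). Col27a1 lost its call in 7 of 8 fits (adjusted p 0.081 to 0.171), all but that without ZT15 replicate 2. Cys1 lost its call in 6 of 8 fits (adjusted p 0.0667 to 0.123), all but that without ZT15 replicate 1 or ZT20 replicate 2.

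**Figure D1:**
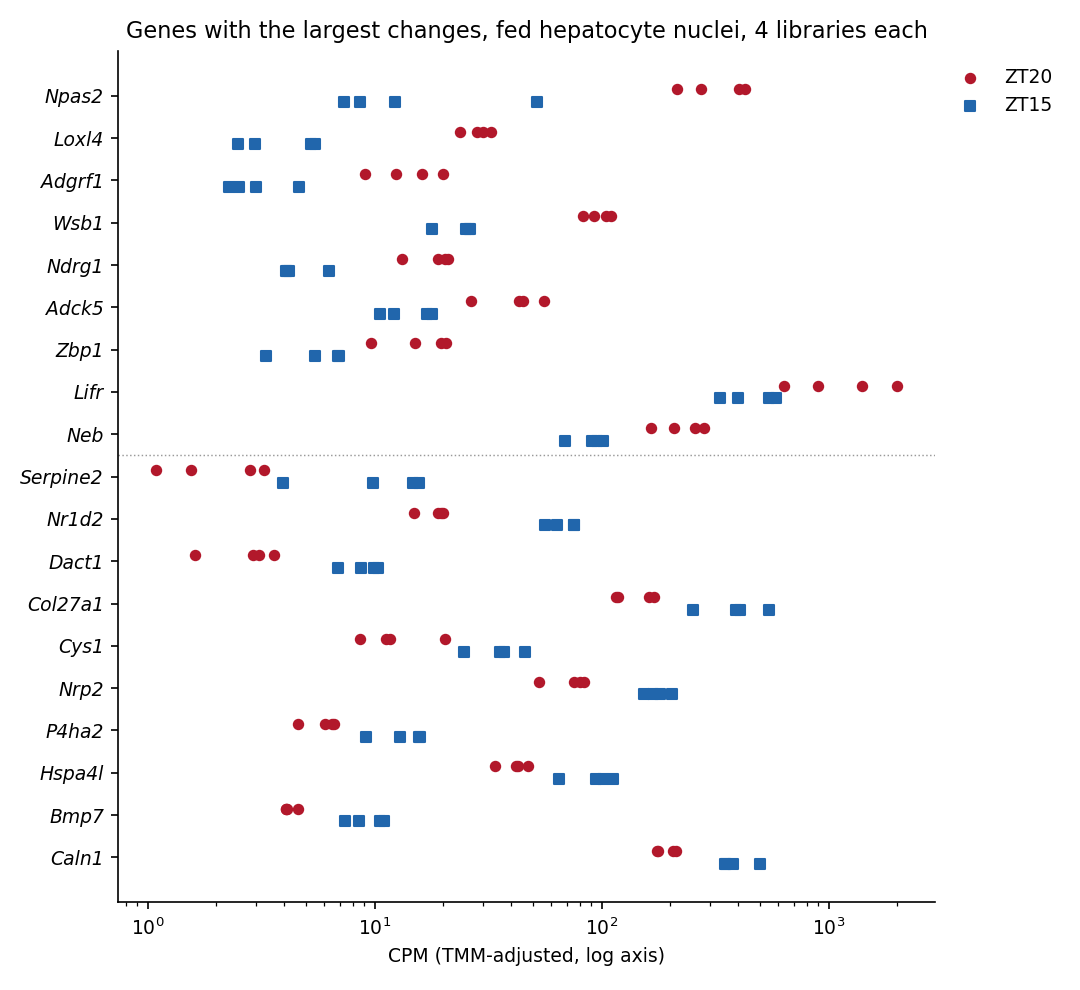
Level in CPM (log axis) of 9 of the genes with the highest and the 10 with the lowest log2 fold change among the 59 called genes, one point per library, ZT20 drawn above ZT15 for each gene. Npas2 sits at 214 to 427 CPM at ZT20 and at 7.31 to 51.6 CPM at ZT15. No gene shown has overlapping groups, which was a condition for being shown.

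Among clock genes the activators Npas2 and Arntl had higher values and Nr1d1, Nr1d2, Ciart, Per2, Per3 and Tef lower values at ZT20. Npas2 and Nr1d2 passed the test in the fit to 32 libraries, and the others in the fit to the 8 libraries. Of the 21 measured genes of the core clock, edgeR called 1 higher and 1 lower at ZT20 in the fit to 32 libraries, and 2 higher and 6 lower among 21 in the fit to the 8 libraries. Among these 21 the unadjusted p was under 0.05 for 2 higher and 7 lower in the first fit and for 4 and 7 in the second, DESeq2 on the 32 libraries called 1 and 4, and the median log2 fold change was 0.0091. The median log2 fold change of all genes tested was 0.0047, and 6.80% of all genes had higher and 7.23% lower values without overlap, compared with 2 and 6 of these 21. Arntl, the gene of BMAL1, had 343, 366, 379 and 437 CPM at ZT20, against 331, 218, 198 and 229 CPM at ZT15. It rose in the fit to the 8 libraries (log2 fold change 0.65 ± 0.15, adjusted p = 0.0317). ZT15 replicate 1 lay above the other ZT15 libraries and just under the ZT20 ones. Its adjusted p was 0.33 in the fit to 32 libraries.

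Of the clock's repressors, 5 were lower in one or both fits. Nr1d1, the gene of REV-ERBα, had 0.835, 1.55, 1.08 and 2.204 CPM at ZT20, against 4.42, 8.71, 4.76 and 3.31 CPM at ZT15 (log2 fold change -1.89 ± 0.36, adjusted p = 0.0149 in the fit to the 8 libraries, and 0.0624 in the fit to 32). Ciart, a repressor of the BMAL1 complex also known as CHRONO, had 1.42 to 4.59 CPM at ZT20, against 10.7 to 13.2 CPM at ZT15 (log2 fold change -2.02 ± 0.25, adjusted p = 0.00265 in the 8 libraries, and 0.0503 in 32). Both genes were low in abundance and had no overlap between the times. Per3 had 91.95, 114, 79.8 and 73.3 CPM at ZT20, against 193, 181, 242 and 195 CPM at ZT15 (log2 fold change -1.17 ± 0.13, adjusted p = 0.00196 in the 8 libraries, and 0.249 in 32). Per2 had 247, 307, 204 and 246 CPM at ZT20, against 379.8, 338, 411 and 431 CPM at ZT15 (log2 fold change -0.63 ± 0.12, adjusted p = 0.014 in the 8 libraries, and 0.177 in 32). Both period genes were lower in every ZT20 library. Per1, which responds to hormones and feeding as well as to the clock, had 24.98 to 58.8 CPM at ZT20, against 20.5 to 37.6 CPM at ZT15 and did not pass either test (log2 fold change 0.59, adjusted p = 0.752). Tef, a D-box activator, had 106, 133, 93.4 and 101 CPM at ZT20, against 171, 185, 218 and 186 CPM at ZT15 (log2 fold change -0.80 ± 0.11, adjusted p = 0.00339 in the 8 libraries, and 0.102 in 32).

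Other clock genes did not pass either test. Cry1 had 146 to 171 CPM at ZT20, against 113 to 152 CPM at ZT15 (log2 fold change 0.31, adjusted p = 0.64) and Cry2 96.2 to 114 CPM at ZT20, against 97.1 to 125 CPM at ZT15 (-0.030, adjusted p = 0.972). Nfil3, the D-box repressor, had 51.1 to 86.05 CPM at ZT20, against 34.4 to 61.8 CPM at ZT15 (0.55, adjusted p = 0.552), and Hlf 167 to 229 CPM at ZT20, against 201 to 281 CPM at ZT15 (-0.35, adjusted p = 0.366). Dbp, whose gene overlaps Sphk2, had 2.57 to 3.81 CPM at ZT20, against 2.92 to 3.74 CPM at ZT15 (0.035, adjusted p = 0.993). The activating receptor Rora and the E-box repressor Bhlhe40 had log2 fold changes of 0.22 (adjusted p = 0.659) and 0.057 (adjusted p = 0.978). The casein kinases Csnk1d and Csnk1e, which mark PER for degradation, and Bhlhe41 lay between -0.15 and 0.14. Nr1d2, Ciart, Nr1d1, Per3, Tef and Per2 kept the call when any 1 of the 8 libraries was left out of the fit to the 8 libraries. Arntl lost its call in 7 of 8 fits (adjusted p 0.0534 to 0.0928), all but that without ZT15 replicate 1. Npas2 lost its call in 5 of 8 fits (adjusted p 0.053 to 0.0832), all but that without ZT15 replicate 1, ZT15 replicate 2 or ZT20 replicate 4.

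The fed groups of ZT4 and ZT12 show where these levels lie in the day. Over the 4 fed times, Npas2 averaged 19.96 ± 21.2 at ZT15, 329 ± 102 at ZT20, 69.6 ± 46.8 at ZT4 and 1.09 ± 0.298 at ZT12, in CPM (SD, n = 4 each). Nr1d2 averaged 67.7 ± 9.62 at ZT15, 18.4 ± 2.34 at ZT20, 173 ± 44.9 at ZT4 and 242 ± 61.7 at ZT12. Nr1d1 averaged 5.302 ± 2.35 at ZT15, 1.42 ± 0.602 at ZT20, 100.5 ± 13.1 at ZT4 and 42.1 ± 20.3 at ZT12. Of the 4 sampled times the mean of Npas2 was highest at ZT20, and those of Nr1d1 and Nr1d2 were lowest there. Per2 averaged 390.1 ± 40.5 at ZT15, 251 ± 42.2 at ZT20, 18.3 ± 6.07 at ZT4 and 299 ± 47.8 at ZT12. Dbp averaged 3.27 ± 0.3602 at ZT15, 3.35 ± 0.553 at ZT20, 16.9 ± 17.2 at ZT4 and 58.7 ± 36.7 at ZT12, with its lowest means at both night times. Only the step between ZT20 and ZT15 was tested.

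**Figure D2:**
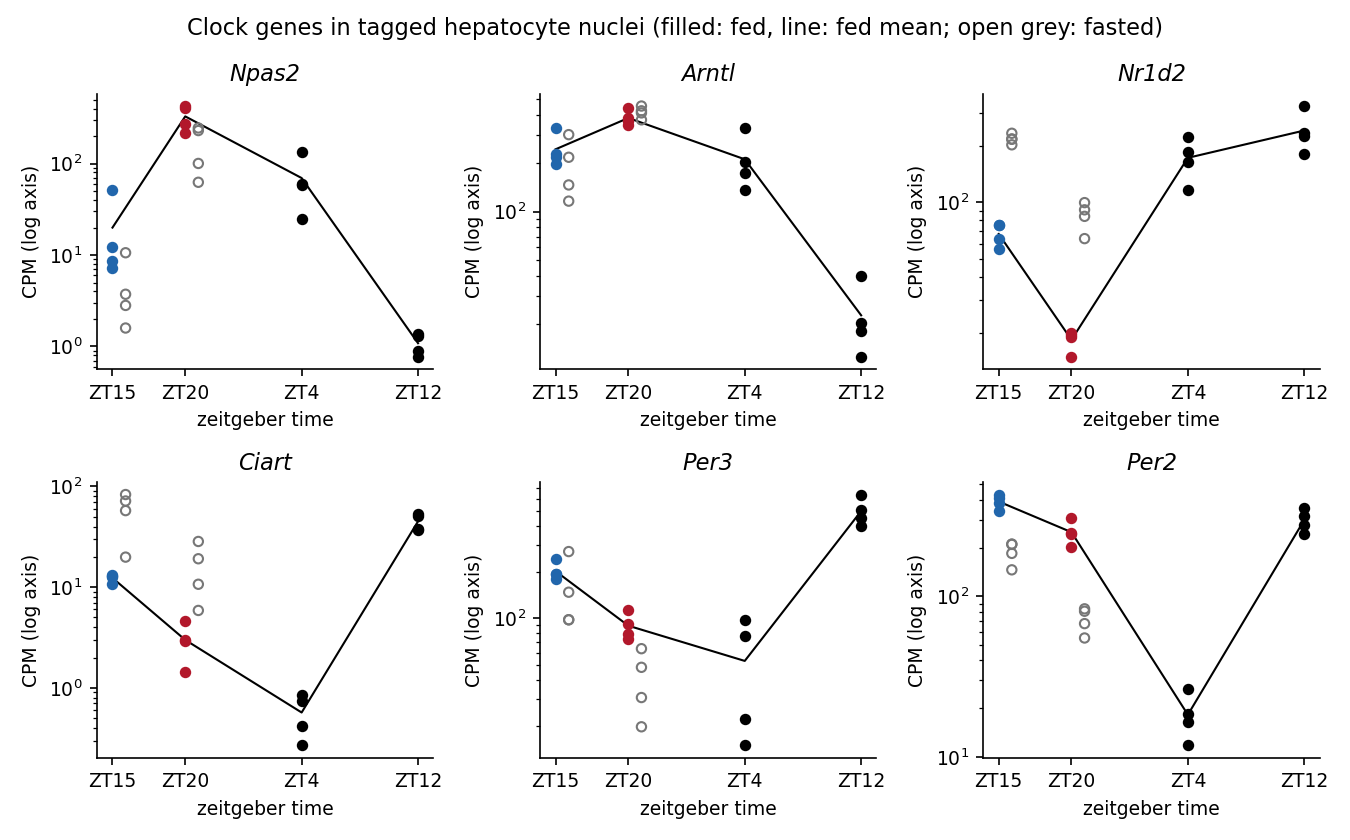
Level in CPM (log axis) of clock genes in tagged hepatocyte nuclei at ZT15, ZT20, ZT4 and ZT12, one point per library, with filled points and a line through the means for fed mice and, at ZT15 and ZT20, open grey points drawn slightly to the right for fasted mice. Npas2 climbs to 214 to 427 CPM at ZT20 in fed mice while Nr1d2 is at 14.9 to 19.9 CPM there.

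The windows from 250 bases before to 50 bases after the annotated start were searched for the clock's own elements. They cover the genes named by rank and all measured clock genes, whether or not these changed. Of the 39 genes named by rank or by the clock list, 28 had such a RefSeq window (GRCm38.p6) with a start within 50 bases of the listed gene. The 300-base windows were searched on both strands for the E-box CACGTG, found in 7.15% of 32851 windows, the D-boxes TTATGTAA and TTATGCAA, found in 1.66%, and the ROR element core TAGGTCA, found in 2.61%; no matches overlapped in the windows shown. The E-box was found in 6 of the 28, a D-box in 2 and the ROR core in 3. Among these, Per1, Cry1 and Bhlhe41 with an E-box and Nfil3 with a ROR core passed neither test. The counts come largely from clock genes and do not describe genes that changed. Those of Ciart (E-boxes at -116, -58 and -44 from the start), Wsb1 (E-boxes at -219 and -183), Per3 (D-boxes at -205 and -158) and Arntl (ROR core at 30, in the window of a start 46 bases from the listed one) are printed 5′ to 3′ on the strand of the gene, since these genes stand for the 3 elements, with matches in capitals.
Ciart: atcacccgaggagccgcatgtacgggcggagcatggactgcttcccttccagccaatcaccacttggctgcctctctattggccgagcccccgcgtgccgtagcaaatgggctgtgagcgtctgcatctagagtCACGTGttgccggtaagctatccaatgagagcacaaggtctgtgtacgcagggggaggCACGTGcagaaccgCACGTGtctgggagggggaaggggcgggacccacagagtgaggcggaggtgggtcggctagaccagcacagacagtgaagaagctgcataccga
Wsb1: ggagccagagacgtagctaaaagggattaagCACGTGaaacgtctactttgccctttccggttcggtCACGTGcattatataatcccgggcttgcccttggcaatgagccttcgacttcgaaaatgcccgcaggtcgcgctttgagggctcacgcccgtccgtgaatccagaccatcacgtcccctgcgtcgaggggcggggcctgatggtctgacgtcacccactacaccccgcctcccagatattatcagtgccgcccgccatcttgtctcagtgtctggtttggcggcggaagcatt
Per3: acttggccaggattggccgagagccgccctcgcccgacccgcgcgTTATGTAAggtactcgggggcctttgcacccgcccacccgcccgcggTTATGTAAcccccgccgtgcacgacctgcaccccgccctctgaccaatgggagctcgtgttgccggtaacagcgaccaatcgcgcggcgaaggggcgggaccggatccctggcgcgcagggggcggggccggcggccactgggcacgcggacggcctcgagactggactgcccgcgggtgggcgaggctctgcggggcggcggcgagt
Arntl: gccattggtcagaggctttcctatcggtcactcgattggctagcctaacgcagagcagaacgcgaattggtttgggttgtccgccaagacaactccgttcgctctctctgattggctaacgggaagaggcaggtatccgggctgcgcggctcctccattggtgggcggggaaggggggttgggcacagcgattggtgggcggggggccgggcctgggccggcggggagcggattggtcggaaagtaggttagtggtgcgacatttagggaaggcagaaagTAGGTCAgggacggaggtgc
The windows lie at chr3:95882179-95882478 (minus strand), chr11:79254646-79254945 (minus), chr4:151044616-151044915 (minus) and chr7:113207261-113207560 (plus). Of these genes Wsb1 rose, Ciart and Per3 were lower and Arntl was higher in the fit to the 8 libraries. The windows of Npas2 and Nr1d2 hold none of these letters. A match describes the sequence alone, and no binding was measured.

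Among genes downstream of the clock, 1 of 25 was called higher and 4 lower in the fit to the 8 libraries. The shares of all genes in that fit were 3.20% higher and 3.48% lower, and 1 of 25 is near the first. Of the 26 measured clock output genes, edgeR called 0 higher and 1 lower at ZT20 in the fit to 32 libraries, and 1 higher and 4 lower among 25 in the fit to the 8 libraries. Among these 26 the unadjusted p was under 0.05 for 2 higher and 4 lower in the first fit and for 6 and 8 in the second, DESeq2 on the 32 libraries called 0 and 2, and the median log2 fold change was -0.027. Cys1 was the call in the fit to 32 libraries. Wee1, the kinase that holds cells before mitosis, had 7.74, 8.61, 8.13 and 7.51 CPM at ZT20, against 22.9, 21.8, 25.5 and 23.2 CPM at ZT15 (log2 fold change -1.54 ± 0.094, adjusted p = 3.71e-05 in the 8 libraries, 0.0503 in 32). Both groups were tight and far apart. Rgs16, a brake on G protein signalling tied to feeding time, had 0.445 to 1.08 CPM at ZT20, against 1.68 to 4.19 CPM at ZT15 (log2 fold change -1.87 ± 0.34, adjusted p = 0.0109 in the 8 libraries). Ppp1r3c, which brings protein phosphatase 1 to glycogen, had 54.7, 70.01, 45.97 and 45.6 CPM at ZT20, against 33.6, 25.6, 25.1 and 31.4 CPM at ZT15 (log2 fold change 0.91 ± 0.15, adjusted p = 0.0074 in the 8 libraries). Wee1, Rgs16 and Ppp1r3c kept the call when any 1 of the 8 libraries was left out of the fit to the 8 libraries. Cys1 lost its call without ZT20 replicate 1 or ZT15 replicate 3 (adjusted p 0.0525 to 0.063).

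Of the genes that break down amino acids, 7 were higher at ZT20 in the fit to the 8 libraries, and none passed in the fit to 32. Of the 37 measured genes of amino acid breakdown and the urea cycle, edgeR called 0 higher and 0 lower at ZT20 in the fit to 32 libraries, and 7 higher and 0 lower among 37 in the fit to the 8 libraries. Among these 37 the unadjusted p was under 0.05 for 8 higher and 1 lower in the first fit and for 11 and 4 in the second, DESeq2 on the 32 libraries called 3 and 0, and the median log2 fold change was 0.12. Agxt, the peroxisomal enzyme that detoxifies glyoxylate, had 97.8, 141, 115 and 135 CPM at ZT20, against 72.9, 53.03, 51.5 and 53.9 CPM at ZT15 (log2 fold change 1.08 ± 0.14, adjusted p = 0.00282 in the 8 libraries). Got1, the cytosolic aspartate aminotransferase, had 331, 203, 371 and 416 CPM at ZT20, against 168, 127, 82.6 and 125 CPM at ZT15 (log2 fold change 1.397 ± 0.26, adjusted p = 0.0191). Sds, which turns serine into pyruvate and whose gene overlaps Plbd2, had 299.6, 249.8, 149 and 189 CPM at ZT20, against 103, 116, 72.3 and 96.9 CPM at ZT15 (log2 fold change 1.198 ± 0.22, adjusted p = 0.0171). Every ZT20 library exceeded every ZT15 library for the 3 genes. Oat, ornithine aminotransferase, had 175 to 345 CPM at ZT20, against 79.9 to 124 CPM at ZT15 (log2 fold change 1.19 ± 0.24, adjusted p = 0.0226). Agxt kept the call when any 1 of the 8 libraries was left out of the fit to the 8 libraries. Got1 lost its call without ZT20 replicate 1 or ZT15 replicate 4 (adjusted p 0.0595 to 0.0628). Sds lost its call without ZT15 replicate 4 (adjusted p = 0.0521). Oat lost its call without ZT15 replicate 1, ZT20 replicate 2, ZT15 replicate 3 or ZT15 replicate 4 (adjusted p 0.0531 to 0.0611).

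Glucose and glycogen genes moved in both directions. Of the 20 measured gluconeogenesis genes, edgeR called 0 higher and 0 lower at ZT20 in the fit to 32 libraries, and 3 higher and 1 lower among 20 in the fit to the 8 libraries. Among these 20 the unadjusted p was under 0.05 for 3 higher and 1 lower in the first fit and for 5 and 3 in the second, DESeq2 on the 32 libraries called 0 and 0, and the median log2 fold change was 0.13. The 3 higher ones were Got1, Sds and Cpt1a, the enzyme that admits fatty acids to mitochondria, with 271, 256, 229 and 255 CPM at ZT20, against 157, 167, 154 and 158 CPM at ZT15 (log2 fold change 0.67 ± 0.076, adjusted p = 0.00196 in the 8 libraries). The lists share members: Got1 and Sds are also counted under amino acid breakdown, and Cpt1a, an enzyme of fat oxidation, under fat oxidation. The gluconeogenesis list thus held no higher call of its own. The lower one was Slc37a4, the transporter of glucose 6-phosphate, at -0.35 (adjusted p = 0.0496). Of the 25 measured genes of glycolysis and fructose use, edgeR called 0 higher and 0 lower at ZT20 in the fit to 32 libraries, and 0 higher and 3 lower among 25 in the fit to the 8 libraries. Among these 25 the unadjusted p was under 0.05 for 1 higher and 3 lower in the first fit and for 4 and 4 in the second, DESeq2 on the 32 libraries called 1 and 0, and the median log2 fold change was -0.10. Khk, which phosphorylates fructose, had 107, 138, 94.7 and 101 CPM at ZT20, against 156, 167, 179 and 197 CPM at ZT15 (log2 fold change -0.66 ± 0.12, adjusted p = 0.0107). Slc2a2, the liver's glucose transporter GLUT2, had 210.3, 233, 178 and 196 CPM at ZT20, against 280.4, 291, 264 and 272 CPM at ZT15 (log2 fold change -0.43 ± 0.089, adjusted p = 0.0181). Both were lower in every ZT20 library, as was Pgk1, a kinase of glycolysis, at -0.46 (adjusted p = 0.0293). Cpt1a, Khk and Slc2a2 kept the call when any 1 of the 8 libraries was left out of the fit to the 8 libraries. Pgk1 lost its call without ZT15 replicate 2, ZT15 replicate 3 or ZT15 replicate 4 (adjusted p 0.0519 to 0.084). Slc37a4 lost its call in 6 of 8 fits (adjusted p 0.0672 to 0.116), all but that without ZT15 replicate 1 or ZT20 replicate 4.

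In glycogen metabolism the branching enzyme and the synthase were lower and a phosphatase targeting subunit was higher. The fit to the 8 libraries called 3.20% of all genes higher and 3.48% lower. Of the 20 measured glycogen genes, edgeR called 0 higher and 0 lower at ZT20 in the fit to 32 libraries, and 1 higher and 2 lower among 19 in the fit to the 8 libraries. Among these 20 the unadjusted p was under 0.05 for 0 higher and 2 lower in the first fit and for 4 and 5 in the second, DESeq2 on the 32 libraries called 0 and 1, and the median log2 fold change was -0.065. Gbe1, the branching enzyme, had 398, 391, 404 and 444 CPM at ZT20, against 805, 626, 912 and 858 CPM at ZT15 (log2 fold change -0.96 ± 0.11, adjusted p = 0.00207 in the 8 libraries). Gys2, the liver's glycogen synthase, had 87.6 to 98.8 CPM at ZT20, against 109 to 122 CPM at ZT15 (log2 fold change -0.31 ± 0.071, adjusted p = 0.0273), and Ppp1r3c is described above. The groups of these 3 genes were apart. Gbe1 kept the call when any 1 of the 8 libraries was left out of the fit to the 8 libraries. Gys2 lost its call without ZT15 replicate 2, ZT20 replicate 1, ZT15 replicate 3 or ZT15 replicate 4 (adjusted p 0.0561 to 0.0873).

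Fat oxidation genes were more often lower than higher at ZT20, with small differences. Of the 50 measured genes of fatty acid oxidation and ketogenesis, edgeR called 0 higher and 0 lower at ZT20 in the fit to 32 libraries, and 1 higher and 5 lower among 47 in the fit to the 8 libraries. Among these 50 the unadjusted p was under 0.05 for 2 higher and 7 lower in the first fit and for 2 and 11 in the second, DESeq2 on the 32 libraries called 0 and 0, and the median log2 fold change was -0.11. Acot1, an acyl-CoA thioesterase, Pex11a, which drives peroxisome division, and Acaa1b, a peroxisomal thiolase, stood at -0.88 (adjusted p = 0.0279), -0.73 (adjusted p = 0.0236) and -0.49 (adjusted p = 0.0373) on the log2 scale in the fit to the 8 libraries. Acot1 had 6.14 to 7.38 CPM at ZT20, against 9.28 to 18.3 CPM at ZT15, and Acaa1b had 420.1 to 579 CPM at ZT20, against 656 to 879 CPM at ZT15. Cpt1a went the other way. Acot1, in the fit to the 8 libraries, lost its call without ZT20 replicate 1, ZT20 replicate 2 or ZT20 replicate 4 (adjusted p 0.058 to 0.077). Pex11a lost its call without ZT20 replicate 1, ZT20 replicate 2 or ZT15 replicate 3 (adjusted p 0.055 to 0.0737). Acaa1b lost its call in 5 of 8 fits (adjusted p 0.0588 to 0.108), all but that without ZT15 replicate 1, ZT15 replicate 2 or ZT20 replicate 2.

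Bile acid genes moved in both directions, in a fit to the 8 libraries that called 3.20% of all genes higher and 3.48% lower. Of the 24 measured bile acid genes, edgeR called 0 higher and 0 lower at ZT20 in the fit to 32 libraries, and 2 higher and 2 lower among 24 in the fit to the 8 libraries. Among these 24 the unadjusted p was under 0.05 for 4 higher and 3 lower in the first fit and for 4 and 6 in the second, DESeq2 on the 32 libraries called 1 and 0, and the median log2 fold change was -0.082. Hsd3b7, an early enzyme of bile acid synthesis, had 196, 211, 212 and 273 CPM at ZT20, against 165, 143, 158 and 159 CPM at ZT15 (log2 fold change 0.52 ± 0.11, adjusted p = 0.0168 in the 8 libraries). Akr1d1, which reduces the sterol ring, had 511, 642, 657 and 557 CPM at ZT20, against 887, 791, 880.3 and 786 CPM at ZT15 (log2 fold change -0.49 ± 0.10, adjusted p = 0.017). Higher at ZT20 too was Abcg8, one partner of the sterol exporter, whose gene lies head to head with Abcg5, at 0.71 (adjusted p = 0.0423), and lower was the organic anion uptake carrier Slco1a4, at -0.57 (adjusted p = 0.0205). Hsd3b7, in the fit to the 8 libraries, lost its call without ZT15 replicate 3 or ZT15 replicate 4 (adjusted p 0.0538 to 0.0558). Akr1d1 lost its call without ZT20 replicate 1 or ZT15 replicate 3 (adjusted p 0.0512 to 0.0573). Slco1a4 lost its call without ZT20 replicate 1 or ZT15 replicate 3 (adjusted p 0.0633 to 0.067). Abcg8 lost its call in 7 of 8 fits (adjusted p 0.055 to 0.1), all but that without ZT15 replicate 3.

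Chaperones of the endoplasmic reticulum (ER) and of the cytosol leaned lower later in the night. Of the 25 measured ER chaperone and unfolded protein response genes, edgeR called 0 higher and 0 lower at ZT20 in the fit to 32 libraries, and 0 higher and 4 lower among 24 in the fit to the 8 libraries. Among these 25 the unadjusted p was under 0.05 for 0 higher and 7 lower in the first fit and for 0 and 13 in the second, DESeq2 on the 32 libraries called 0 and 1, and the median log2 fold change was -0.39. Of the 25, 23 had a log2 fold change under 0, and the summed level was 1527 to 1786 CPM at ZT20, against 1784 to 2771 CPM at ZT15. Dnajb11, a co-chaperone of BiP, had 24.5, 22.97, 29.5 and 24.6 CPM at ZT20, against 37.1, 60.5, 40.9 and 34.8 CPM at ZT15 (log2 fold change -0.77 ± 0.17, adjusted p = 0.0263 in the 8 libraries). Sel1l, part of the ER-associated degradation complex, had 130.0, 133, 180.2 and 166 CPM at ZT20, against 206, 258, 205 and 188 CPM at ZT15 (log2 fold change -0.49 ± 0.13, adjusted p = 0.049). The lectin chaperone Canx had 114 to 125 CPM at ZT20, against 129.5 to 183 CPM at ZT15 (log2 fold change -0.39 ± 0.10, adjusted p = 0.049), and Sdf2l1, an ER lumen chaperone, had 0.451 to 0.677 CPM at ZT20, against 0.909 to 2.96 CPM at ZT15 (log2 fold change -1.69 ± 0.38, adjusted p = 0.0257). In these 4 genes the highest ZT15 library was replicate 2. Dnajb11, in the fit to the 8 libraries, lost its call without ZT20 replicate 1, ZT20 replicate 2, ZT15 replicate 3 or ZT20 replicate 4 (adjusted p 0.0549 to 0.0761). Sel1l lost its call in 7 of 8 fits (adjusted p 0.0552 to 0.121), all but that without ZT20 replicate 3. Canx lost its call in 7 of 8 fits (adjusted p 0.0514 to 0.131), all but that without ZT15 replicate 1. Sdf2l1 lost its call in 5 of 8 fits (adjusted p 0.0569 to 0.0633), all but that without ZT15 replicate 1, ZT15 replicate 2 or ZT20 replicate 3. Under upper quartile scaling the calls of Sel1l (0.0694) and Canx (0.0697) ended (adjusted p in parentheses).

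Of the 19 measured heat shock genes, edgeR called 0 higher and 1 lower at ZT20 in the fit to 32 libraries, and 0 higher and 2 lower among 19 in the fit to the 8 libraries. Among these 19 the unadjusted p was under 0.05 for 0 higher and 4 lower in the first fit and for 0 and 6 in the second, DESeq2 on the 32 libraries called 0 and 1, and the median log2 fold change was -0.39. Of the 19, 17 had a log2 fold change under 0, with a summed level of 632 to 1131 CPM at ZT20, against 758 to 1473 CPM at ZT15. Hspa4l is the gene called in both fits. Chordc1, a co-chaperone of HSP90, had 66.2, 63.6, 56.2 and 57.2 CPM at ZT20, against 63.5, 94.1, 98.9 and 83.6 CPM at ZT15 (log2 fold change -0.48 ± 0.13, adjusted p = 0.0471 in the 8 libraries). Its groups overlapped, since ZT15 replicate 1 was as low as the ZT20 libraries. Chordc1, in the fit to the 8 libraries, lost its call in 7 of 8 fits (adjusted p 0.078 to 0.136), all but that without ZT15 replicate 1.

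Acute phase proteins and interferon-stimulated genes, both made by hepatocytes in response to cytokines, leaned higher. Of the 27 measured acute phase genes, edgeR called 0 higher and 0 lower at ZT20 in the fit to 32 libraries, and 4 higher and 0 lower among 25 in the fit to the 8 libraries. Among these 27 the unadjusted p was under 0.05 for 6 higher and 0 lower in the first fit and for 8 and 1 in the second, DESeq2 on the 32 libraries called 0 and 0, and the median log2 fold change was 0.16. Of the 27, 18 had a log2 fold change above 0 and 9 under 0. The summed level of the list was 7788 to 9050.0 CPM at ZT20, against 4713 to 6291 CPM at ZT15. Much of that step lay in C3 alone, which averaged 3177 CPM at ZT20 and 1605 CPM at ZT15. C3, the central complement protein, had 4252, 3083, 2724 and 2647 CPM at ZT20, against 1594, 1059, 1412 and 2356 CPM at ZT15 (log2 fold change 0.99 ± 0.24, adjusted p = 0.0409 in the 8 libraries). Lbp, the lipopolysaccharide-binding protein, had 71.7 to 80.99 CPM at ZT20, against 45.3 to 55.8 CPM at ZT15 (log2 fold change 0.65 ± 0.085, adjusted p = 0.00266). Hamp, the iron hormone hepcidin, had 252, 226, 235 and 213 CPM at ZT20, against 157, 156, 149 and 139 CPM at ZT15 (log2 fold change 0.63 ± 0.078, adjusted p = 0.00265). All 3 were without overlap, as was Itih3, an inhibitor chain of the plasma, with 1216 to 1406 CPM at ZT20, against 813 to 945 CPM at ZT15 (log2 fold change 0.61 ± 0.095, adjusted p = 0.00536). Lbp, Hamp and Itih3 kept the call when any 1 of the 8 libraries was left out of the fit to the 8 libraries. C3 lost its call in 7 of 8 fits (adjusted p 0.053 to 0.116), all but that without ZT15 replicate 4.

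Of the 35 measured interferon response genes, edgeR called 1 higher and 0 lower at ZT20 in the fit to 32 libraries, and 3 higher and 0 lower among 34 in the fit to the 8 libraries. Among these 35 the unadjusted p was under 0.05 for 7 higher and 0 lower in the first fit and for 12 and 0 in the second, DESeq2 on the 32 libraries called 2 and 0, and the median log2 fold change was 0.29. Of the 35, 29 had a log2 fold change above 0. Zbp1 is the call in both fits. Gbp7, a guanylate-binding protein with close paralogs, had 9.71 to 19.03 CPM at ZT20, against 5.82 to 8.97 CPM at ZT15 (log2 fold change 0.88 ± 0.21, adjusted p = 0.0316 in the 8 libraries), and Usp18, which removes ISG15 and damps the interferon receptor, had 12.3 to 17.8 CPM at ZT20, against 8.12 to 11.99 CPM at ZT15 (log2 fold change 0.57 ± 0.15, adjusted p = 0.0477). Zbp1, in the fit to the 8 libraries, lost its call without ZT15 replicate 4 (adjusted p = 0.051). Gbp7 lost its call in 6 of 8 fits (adjusted p 0.0549 to 0.0918), all but that without ZT15 replicate 1 or ZT20 replicate 2. Usp18 lost its call in 6 of 8 fits (adjusted p 0.0657 to 0.127), all but that without ZT15 replicate 1 or ZT20 replicate 2. Of the 25 measured glucocorticoid receptor targets, edgeR called 0 higher and 0 lower at ZT20 in the fit to 32 libraries, and 3 higher and 0 lower among 21 in the fit to the 8 libraries. Among these 25 the unadjusted p was under 0.05 for 4 higher and 1 lower in the first fit and for 6 and 3 in the second, DESeq2 on the 32 libraries called 1 and 0, and the median log2 fold change was 0.23. Errfi1, a feedback inhibitor of the EGF receptor, had 2829, 2058, 2027 and 2221 CPM at ZT20, against 1000.3, 1091, 1110.3 and 1836 CPM at ZT15 (log2 fold change 0.86 ± 0.20, adjusted p = 0.0299), with ZT15 replicate 4 near the ZT20 values. Klf9, a transcription factor, had 81.1 to 129.6 CPM at ZT20, against 56.6 to 74.02 CPM at ZT15 (log2 fold change 0.75 ± 0.15, adjusted p = 0.017), and Cdkn1a, the cell cycle inhibitor p21, had 7.24, 1.49, 5.08 and 5.06 CPM at ZT20, against 1.07, 0.812, 0.595 and 0.408 CPM at ZT15 (log2 fold change 2.67 ± 0.46, adjusted p = 0.00981). Cdkn1a kept the call when any 1 of the 8 libraries was left out of the fit to the 8 libraries. Klf9 lost its call without ZT20 replicate 1 or ZT15 replicate 3 (adjusted p 0.0571 to 0.0589). Errfi1 lost its call in 5 of 8 fits (adjusted p 0.0574 to 0.0944), all but that without ZT20 replicate 2, ZT20 replicate 3 or ZT15 replicate 4.

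Growth hormone targets were higher or lower by gene, and Socs2 and Igf1 varied widely between the ZT20 libraries. Beside them, 3.20% of all genes were called higher and 3.48% lower in the fit to the 8 libraries. Of the 31 measured targets of growth hormone and STAT5, edgeR called 0 higher and 0 lower at ZT20 in the fit to 32 libraries, and 2 higher and 2 lower among 30 in the fit to the 8 libraries. Among these 31 the unadjusted p was under 0.05 for 6 higher and 1 lower in the first fit and for 7 and 4 in the second, DESeq2 on the 32 libraries called 2 and 0, and the median log2 fold change was -0.039. Socs2, the feedback inhibitor of growth hormone signalling, had 22.9, 6.95, 22.8 and 19.5 CPM at ZT20, against 3.802, 2.47, 4.76 and 2.702 CPM at ZT15 (log2 fold change 2.42 ± 0.38, adjusted p = 0.0097 in the 8 libraries). Igf1, the growth factor that liver releases under growth hormone, had 2908, 868, 2444 and 1563 CPM at ZT20, against 710.1, 414, 735 and 817 CPM at ZT15 (log2 fold change 1.55 ± 0.37, adjusted p = 0.0474). In both genes ZT20 replicate 2 was the lowest ZT20 library and still above the ZT15 libraries. The cytochrome P450 gene Cyp2b9 had 2980.5 to 4141 CPM at ZT20, against 5043 to 6228 CPM at ZT15 (log2 fold change -0.59 ± 0.13, adjusted p = 0.022). Its relative Cyp2b10 had 10.5 to 24.01 CPM at ZT20, against 31.4 to 35.96 CPM at ZT15 (log2 fold change -0.88 ± 0.20, adjusted p = 0.0321). Reads of the Cyp2b family cannot be told apart. Socs2 kept the call when any 1 of the 8 libraries was left out of the fit to the 8 libraries. Igf1 lost its call in 7 of 8 fits (adjusted p 0.0596 to 0.114), all but that without ZT20 replicate 2. Cyp2b9 lost its call without ZT20 replicate 1, ZT15 replicate 3 or ZT15 replicate 4 (adjusted p 0.0512 to 0.0719). Cyp2b10 lost its call in 5 of 8 fits (adjusted p 0.0505 to 0.0847), all but that without ZT15 replicate 2, ZT20 replicate 1 or ZT20 replicate 2.

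Of the 40 measured cytochrome P450 genes of families 1 to 3, edgeR called 0 higher and 0 lower at ZT20 in the fit to 32 libraries, and 3 higher and 4 lower among 40 in the fit to the 8 libraries. Among these 40 the unadjusted p was under 0.05 for 4 higher and 6 lower in the first fit and for 6 and 11 in the second, DESeq2 on the 32 libraries called 1 and 2, and the median log2 fold change was -0.064. Cyp2c69, a member of the Cyp2c cluster, had 3375, 603, 2720.1 and 1382 CPM at ZT20, against 188, 53.4, 295 and 142 CPM at ZT15 (log2 fold change 3.59 ± 0.70, adjusted p = 0.0285 in the 8 libraries). The 4 ZT20 libraries spread widely, in the same order as for Igf1. Cyp2c67 had 118 to 297 CPM at ZT20, against 79.3 to 99.3 CPM at ZT15 (log2 fold change 1.28 ± 0.26, adjusted p = 0.0261). The drug-metabolizing Cyp3a11 had 288, 415, 582 and 589 CPM at ZT20, against 1149, 853, 1286 and 753 CPM at ZT15 (log2 fold change -1.099 ± 0.25, adjusted p = 0.0321), and Cyp3a25 had 679 to 1208 CPM at ZT20, against 1283 to 2601 CPM at ZT15 (log2 fold change -1.07 ± 0.26, adjusted p = 0.0425). Cyp2c69, in the fit to the 8 libraries, lost its call without ZT15 replicate 1, ZT20 replicate 1, ZT15 replicate 3 or ZT15 replicate 4 (adjusted p 0.0509 to 0.084). Cyp2c67 lost its call in 6 of 8 fits (adjusted p 0.0518 to 0.0776), all but that without ZT20 replicate 2 or ZT20 replicate 4. Cyp3a11 lost its call without ZT15 replicate 1, ZT20 replicate 2 or ZT15 replicate 3 (adjusted p 0.0682 to 0.0887). Cyp3a25 lost its call in 6 of 8 fits (adjusted p 0.0572 to 0.113), all but that without ZT20 replicate 3 or ZT15 replicate 4. Without the filter on low counts the calls of all 4 ended, Cyp2c69 (0.0589), Cyp2c67 (0.0583), Cyp3a11 (0.0609) and Cyp3a25 (0.0855) (adjusted p in parentheses). Members of the Cyp2c and Cyp3a clusters are close paralogs and their reads may be shared.

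Of the 36 measured phase II conjugation genes, edgeR called 0 higher and 0 lower at ZT20 in the fit to 32 libraries, and 3 higher and 5 lower among 35 in the fit to the 8 libraries. Among these 36 the unadjusted p was under 0.05 for 3 higher and 5 lower in the first fit and for 5 and 10 in the second, DESeq2 on the 32 libraries called 1 and 2, and the median log2 fold change was -0.17. Glutathione transferases led in both directions. Gsta4 had 5.23, 9.42, 6.84 and 6.56 CPM at ZT20, against 16.4, 14.1, 19.4 and 16.3 CPM at ZT15 (log2 fold change -1.23 ± 0.17, adjusted p = 0.00289 in the 8 libraries), whereas Gstm6 had 12.7, 14.8, 13.7 and 15.9 CPM at ZT20, against 7.19, 3.64, 7.25 and 8.16 CPM at ZT15 (log2 fold change 1.14 ± 0.21, adjusted p = 0.0119). Gsta1 had 0.2297 to 0.609 CPM at ZT20, against 1.04 to 4.01 CPM at ZT15 (log2 fold change -2.65 ± 0.48, adjusted p = 0.0107), and Gsta2 had 6.01 to 7.16 CPM at ZT20, against 8.97 to 22.03 CPM at ZT15 (log2 fold change -1.11 ± 0.25, adjusted p = 0.0301). Gsta1, Gsta4 and Gstm6 kept the call when any 1 of the 8 libraries was left out of the fit to the 8 libraries. Gsta2 lost its call in 5 of 8 fits (adjusted p 0.0551 to 0.09), all but that without ZT15 replicate 1, ZT15 replicate 2 or ZT15 replicate 4. Of the 27 measured NRF2 targets and antioxidant enzymes, edgeR called 0 higher and 0 lower at ZT20 in the fit to 32 libraries, and 0 higher and 2 lower among 26 in the fit to the 8 libraries. Among these 27 the unadjusted p was under 0.05 for 0 higher and 3 lower in the first fit and for 1 and 7 in the second, DESeq2 on the 32 libraries called 0 and 0, and the median log2 fold change was -0.19. The lower ones were the carboxylesterase Ces1g at -0.88 (adjusted p = 0.0321) and Tkt, transketolase of the pentose phosphate path, at -0.38 (adjusted p = 0.0345). Ces1g, in the fit to the 8 libraries, lost its call in 6 of 8 fits (adjusted p 0.0557 to 0.0873), all but that without ZT15 replicate 2 or ZT20 replicate 4. Tkt lost its call in 6 of 8 fits (adjusted p 0.0517 to 0.103), all but that without ZT15 replicate 2 or ZT20 replicate 4.

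Of the 36 measured nuclear receptor genes, edgeR called 1 higher and 1 lower at ZT20 in the fit to 32 libraries, and 2 higher and 3 lower among 36 in the fit to the 8 libraries. Among these 36 the unadjusted p was under 0.05 for 5 higher and 7 lower in the first fit and for 5 and 10 in the second, DESeq2 on the 32 libraries called 2 and 3, and the median log2 fold change was -0.13. Nr1d2 and Ppard were the calls in the fit to 32, and the fit to the 8 libraries added 3. One was Nr1d1, and Nr3c2, the mineralocorticoid receptor, named after its values were seen, stood at -0.44 (adjusted p = 0.0347). The one higher was Nr1h2, the oxysterol receptor LXRβ, with 18.3, 18.4, 16.99 and 20.4 CPM at ZT20, against 13.1, 13.2, 9.53 and 12.9 CPM at ZT15 (log2 fold change 0.61 ± 0.12, adjusted p = 0.018). Nr1h2, in the fit to the 8 libraries, lost its call without ZT20 replicate 1 (adjusted p = 0.0546). The amino acid transporters Slc16a10 and Slc3a1, whose gene overlaps Prepl, were lower at -0.56 (adjusted p = 0.0279) and -0.45 (adjusted p = 0.0321) in the 8 libraries, and their calls were lost in 4 and 5 of the 8 fits without 1 library.

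Several programmes that food drives in liver held no called gene in either fit. Among 26 cholesterol synthesis genes edgeR called none, with 2 lower at an unadjusted p under 0.05 in each fit and none called by DESeq2, and the summed level was 2604 to 3418 CPM at ZT20, against 2394 to 4298 CPM at ZT15. Among 26 genes of fatty acid and triglyceride synthesis edgeR called none, with 5 lower at an unadjusted p under 0.05 in the fit to 32, 1 higher and 3 lower in the 8 libraries, and 2 lower called by DESeq2. The ZT15 libraries of that list summed to 8592 to 20582 CPM, a wider span than the 11321 to 13517 CPM of ZT20. No gene was called either among 25 FoxO targets, 23 ATF4 targets, 38 ribosome synthesis genes, 48 cytosolic ribosomal protein genes, 17 immediate early genes and 19 antigen presentation genes. In these 6 lists 13 genes were higher and 1 lower at an unadjusted p under 0.05 in the fit to 32, and 18 higher and 10 lower in the 8 libraries. DESeq2 called 1 of them, a FoxO target. In the 6 lists together 112 genes had a log2 fold change above 0 and 58 under 0, beside 6577 and 6365 of all genes tested. Of the 48 cytosolic ribosomal protein genes, 40 were above 0 and 8 under 0, with a median of 0.13. The absence of calls therefore does not show that these lists were unchanged. A single gene was called in the 8 libraries among 42 genes of oxidative phosphorylation (Cox5b, 0.43, adjusted p = 0.044), 30 proteasome subunits (Psmc3, 0.37, adjusted p = 0.0329) and 29 autophagy and lysosome genes (Atg2a, 0.46, adjusted p = 0.0454). These 3 calls were lost in 8, 7 and 6 of the 8 fits without 1 library. Of 30 cell cycle genes, those called in the 8 libraries were Cdkn1a and Wee1.

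**Figure D3:**
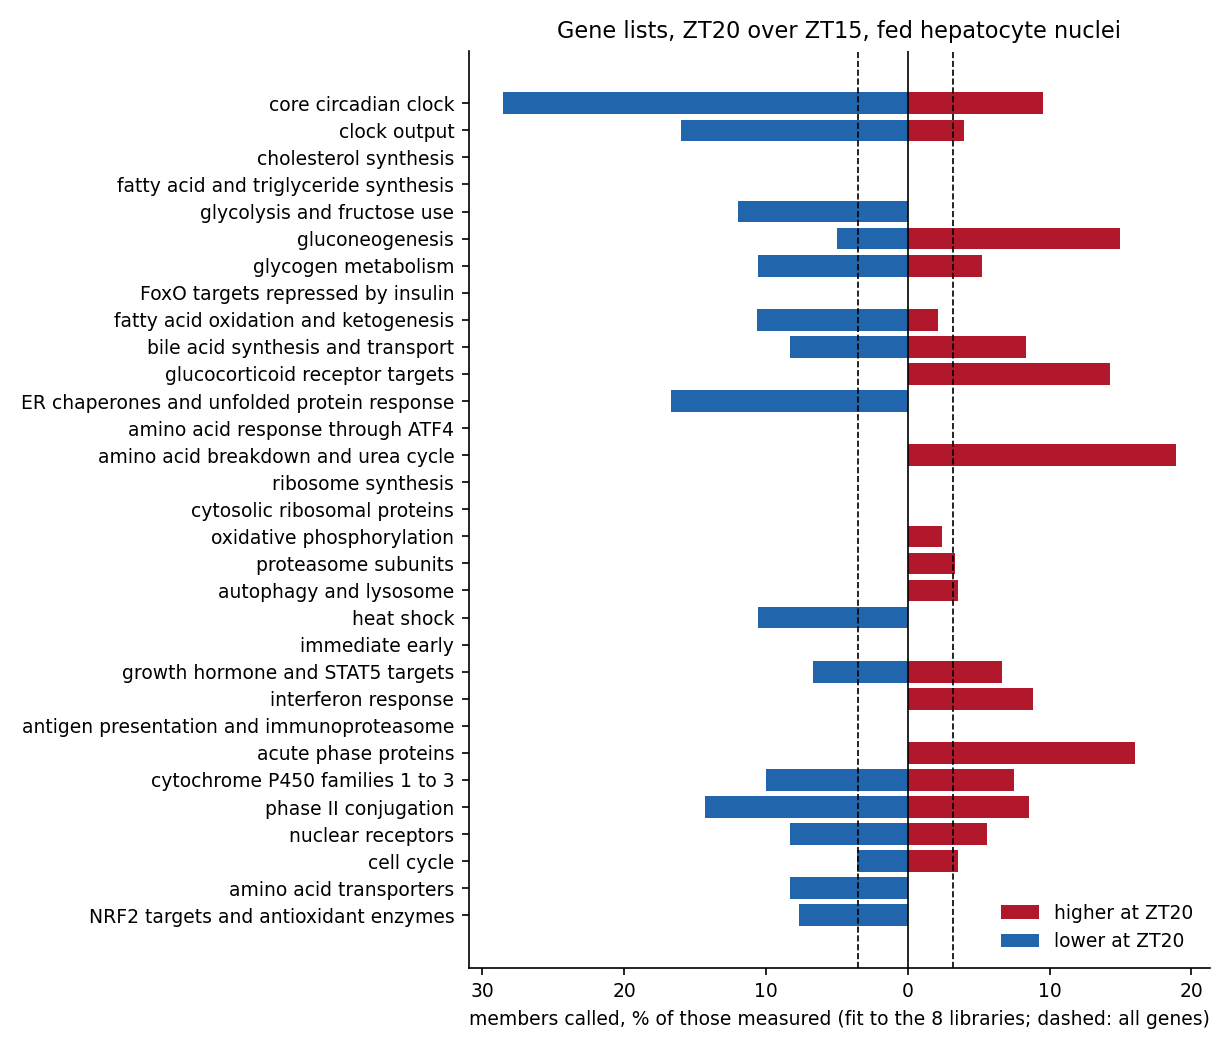
Share of the measured members of each gene list called in the fit to the 8 libraries, in percent, to the right for higher at ZT20 and to the left for lower, beside the shares over all genes tested, 3.20% and 3.48%. Amino acid breakdown has 7 of 37 members higher and none lower, and ER chaperones have 4 of 24 lower and none higher.

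The step of ZT20 over ZT15 was set beside the same step in mice without food, where the fast had lasted 8 h and 3 h, so that time of day and length of the fast cannot be told apart there. In fasted hepatocytes 681 of 12942 genes (5.26%) were called higher and 877 (6.78%) lower at 8 h over 3 h. The difference between the fed and the fasted step was called for 700 genes (5.41%), 383 (2.96%) with the higher change in fed mice and 317 (2.45%) with the lower. Without replicate 1 of the fasted 8 h group the 700 became 449. Among the 59 genes of the fed night, 17 were called in the same direction in fasted mice and 4 in the opposite one. Of all 12942 genes tested these counts were 777 and 781. The difference between the states was called for 21 of the 59. The 59 were chosen by the fed step, which is itself part of that difference. The 21 are therefore no independent result and cannot be set against the share of all genes.

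Npas2 and Nr1d2 changed with and without food. In fasted mice Npas2 had 62.5, 230.0, 100.5 and 245 CPM at 8 h, against 3.73, 1.59, 10.6 and 2.81 CPM at 3 h, a log2 fold change of 5.09 ± 0.66 (adjusted p = 2.6e-05), and its fed less fasted difference was -1.05 ± 0.80 (adjusted p = 0.483). Nr1d2 fell by 1.37 ± 0.19 there (adjusted p = 4.22e-05), with a difference of -0.51 ± 0.27 (adjusted p = 0.278). A p above the threshold does not show that the steps were alike.

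Neb and Lifr, which rose in fed mice, fell in fasted mice. Neb rose in fed mice and had 13.96, 29.3, 19.3 and 24.9 CPM at 8 h, against 49.3, 105, 94.2 and 73.9 CPM at 3 h of fasting (-1.89 ± 0.24, adjusted p = 1.99e-05), which gave a difference of 3.25 ± 0.34 (adjusted p = 2.48e-06). Lifr showed the same contrast, with -1.09 ± 0.26 (adjusted p = 0.00653) in fasted mice and a difference of 2.498 ± 0.37 (adjusted p = 0.000289). Further genes of the fed night did not pass in fasted mice, although their fed less fasted difference did. Wsb1 had a fasted log2 fold change of -0.50 ± 0.33, adjusted p = 0.37, and its difference was 2.52 ± 0.48 (adjusted p = 0.00249). In fasted mice Adgrf1, Zbp1 and Ppard stood at -1.32 ± 0.45 (adjusted p = 0.0555), -0.89 ± 0.44 (adjusted p = 0.202) and 0.10 ± 0.14 (adjusted p = 0.71). Their differences were 3.54 ± 0.64 (adjusted p = 0.00149), 2.41 ± 0.55 (adjusted p = 0.0097) and 0.93 ± 0.20 (adjusted p = 0.00628). Of the genes that fell in fed mice, Hspa4l, P4ha2 and Nrp2 stood at 0.50 ± 0.20 (adjusted p = 0.0987), 0.37 ± 0.16 (adjusted p = 0.137) and 0.27 ± 0.28 (adjusted p = 0.589) in fasted mice, and differed by -1.67 ± 0.28 (adjusted p = 0.000607), -1.54 ± 0.23 (adjusted p = 0.000349) and -1.54 ± 0.40 (adjusted p = 0.0218). Ndrg1 rose in both states (log2 fold change 1.74 ± 0.35 in fasted mice). When each of the 16 libraries was left out in turn, the calls of a difference for Neb, Lifr, Wsb1, Adgrf1, Zbp1, Hspa4l, P4ha2 and Nrp2 were lost in 0, 0, 0, 0, 0, 0, 0 and 3 fits, in this order.

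Genes of xenobiotic metabolism and interferon response stood at the ends of the ranking by difference. Cyp2c69 had the highest one, 6.65 ± 1.52 (adjusted p = 0.0097), with 18.5, 49.8, 12.5 and 16.9 CPM at 8 h, against 17.5, 762, 16.2 and 28.8 CPM at 3 h of fasting. The anion transporter gene Slc22a26, Gbp10 and Cyp2c40 followed at 3.86 ± 0.76 (adjusted p = 0.00357), 3.81 ± 0.75 (adjusted p = 0.00353) and 3.72 ± 0.95 (adjusted p = 0.0193). Slc22a26 averaged 68.9 CPM at ZT20 and 53.9 CPM at ZT15 in fed mice, with overlap, and 5.94 and 67.6 CPM at 8 h and 3 h of fasting. In the same order Gbp10 averaged 18.9 and 6.65 CPM fed, and 0.816 and 4.28 CPM fasted. Cyp2c40 averaged 636 and 175 CPM fed, and 37.9 and 138 CPM fasted. Replicate 2 of the fasted 3 h group had 438 CPM of Cyp2c40, against 27.5 to 52.4 CPM in the other replicates. For Slc22a26 it had 175 CPM, against 22.9 to 45.8 CPM. At the other end were the glutathione transferases Gstm3 at -4.05 ± 0.88 (adjusted p = 0.00662) and Gsta1 at -3.74 ± 1.13 (adjusted p = 0.0474), the microsomal epoxide hydrolase Ephx1 at -3.25 ± 0.62 (adjusted p = 0.00278), and Cyp2c55 at -3.203 ± 0.61 (adjusted p = 0.00247). In the same order as above, Gstm3 averaged 9.01 and 11.5 CPM fed, and 11.4 and 0.914 CPM fasted. Gsta1 averaged 0.444 and 2.86 CPM fed, and 0.947 and 0.473 CPM fasted. Ephx1 averaged 97.0 and 174.5 CPM fed, and 360 and 68.3 CPM fasted. Cyp2c55 averaged 7.60 and 11.9 CPM fed, and 11.02 and 1.84 CPM fasted. The fasted 8 h libraries spread widely, from 0.89 to 24.1 CPM for Gstm3 and from 88.5 to 619 CPM for Ephx1. For Cyp2c55 they ran from 3.56 to 22.2 CPM. Cyp2c69 and Cyp2c40 lost the call without replicate 2 of the fasted 3 h group (adjusted p = 0.0826 and 0.125), and Gsta1 lost it in 13 of 16 fits without 1 library. By list, the difference was called for 7 of 35 interferon genes, 5 of 27 acute phase genes and 5 of 24 bile acid genes, each with the higher change in fed mice, beside 2.96% of all genes. It was called for 11 of 40 P450 genes, 7 of them with the higher change in fed mice. Such a difference can come from either step. In fasted mice edgeR called 0 higher and 4 lower of the 35 interferon genes, 0 higher and 9 lower of the 27 acute phase genes, 1 higher and 8 lower of the 24 bile acid genes and 4 higher and 11 lower of the 40 P450 genes.

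**Figure D4:**
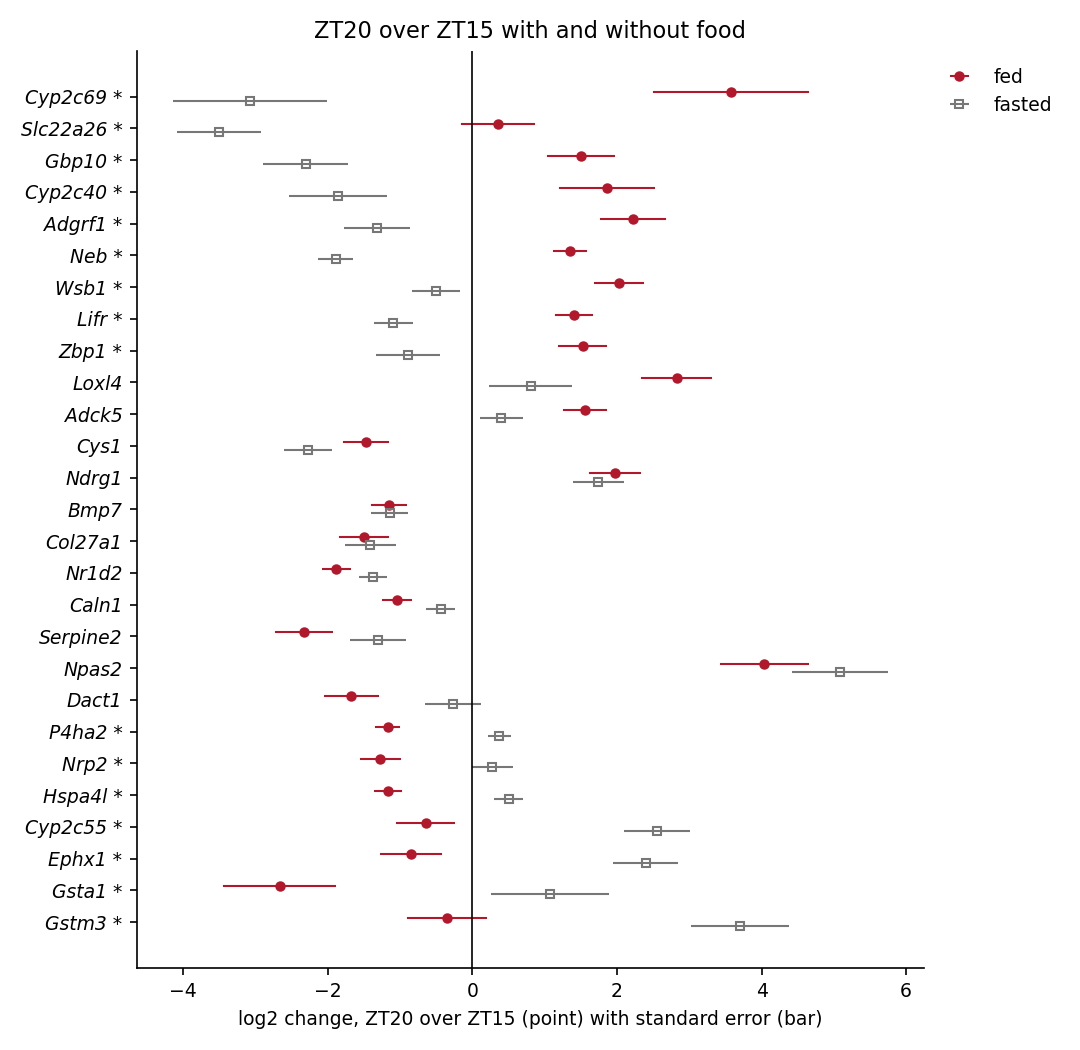
Log2 fold change of ZT20 over ZT15 (8 h over 3 h of fasting) with its SE for named genes in fed (filled circles) and fasted (open squares) hepatocytes, with an asterisk where the difference passed an adjusted p of 0.05. Npas2 and Nr1d2 lie on the same side in both states, and Neb and Lifr on opposite sides.

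Tagged macrophage nuclei of fed mice gave the same 2 times in other mice. In 1 fit across the 64 libraries of tagged nuclei, 139 of 14011 genes (0.992%) were called at ZT20 over ZT15, 32 higher (0.228%) and 107 lower (0.764%). Upper quartile scaling gave 42 and 81. The 139 became 64 without macrophage ZT20 replicate 1, 50 without ZT20 replicate 2, 70 without ZT20 replicate 4, 30 without ZT15 replicate 1 and 63 without ZT15 replicate 3. Of the 59 genes of the hepatocyte night, 18 were called in macrophages, all in the same direction, and 55 had the same sign, beside 8389 of all 12942 genes tested. The macrophage libraries hold hepatocyte RNA, whose part in these values was not tested. The 23 hepatocyte markers summed to 6072 to 9152 CPM of the library total at ZT20, against 8105 to 12660.1 CPM at ZT15 in macrophage nuclei. The 28 Kupffer cell and macrophage markers summed there to 10449 to 13994 CPM at ZT20, against 8729 to 13473 CPM at ZT15.

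In macrophages Npas2 had 128 to 208 CPM at ZT20, against 1.64 to 6.43 CPM at ZT15 (5.06 ± 0.69, adjusted p = 1.07e-05), without overlap. Nr1d2 fell by 1.42 ± 0.18 (adjusted p = 1.5e-06), and Loxl4 rose by 3.17 ± 0.52 (adjusted p = 0.000202). Of 20 heat shock genes 9 fell in macrophages, with a median log2 fold change of -0.84, and the 3 genes whose step differed between the cell types are not among them. The difference between the cell types was called for 3 genes (0.0214%), 2 with the higher change in hepatocytes (0.0143%) and 1 with the lower (0.00714%), compared with 8 called by DESeq2. Usp6nl, a GTPase-activating protein of endocytosis, had 491, 398, 346 and 343 CPM at ZT20, against 188, 214, 227 and 213 CPM at ZT15 in hepatocytes, where it rose (log2 fold change 0.90 ± 0.18, adjusted p = 0.0132 in the fit to 32). In macrophages it had 155, 143, 185 and 152 CPM at ZT20, against 170.0, 176, 195 and 207 CPM at ZT15, and its hepatocyte less macrophage difference was 1.14 ± 0.21 (adjusted p = 0.0258). Igf2bp2, an RNA-binding protein, had 5.66, 8.21, 7.27 and 6.38 CPM at ZT20, against 10.7, 10.7, 11.8 and 10.9 CPM at ZT15 in hepatocytes, and 30.3, 35.2, 30.4 and 31.1 CPM at ZT20, against 9.95, 11.2, 11.3 and 9.77 CPM at ZT15 in macrophages. It rose in macrophages by 1.59 ± 0.31 (adjusted p = 0.00238), and the difference was -2.27 ± 0.44 (adjusted p = 0.026). The third, Prok1, was nearly absent, with 1.70 CPM in ZT20 replicate 4 of hepatocytes as its highest value in the 16 libraries. Leaving out 1 of the 16 libraries ended the call of Igf2bp2 in 10 fits and that of Usp6nl in 7.

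Unpurified nuclei gave the step in 1 pool of 4 mice per time and line, with no replicate. The labels call the pools inputs and do not say whether those of the hepatocyte line hold the mice of the tagged libraries. If they do, the same sign there is no independent result for genes chosen in those mice. All 59 called genes had the same sign in the pools of the hepatocyte line, and 58 of 59 in those of the macrophage line, which come from other mice, compared with 63.4% of all genes tested. The exception was Usp6nl. Lifr, among the 58, was nearly flat in the pools of the macrophage line, with a log2 ratio of 0.019. The log2 ratio of Npas2 was 4.16 in the hepatocyte line and 5.18 in the macrophage line, that of Nr1d2 -2.02 in the hepatocyte line and -1.39 in the macrophage line, that of Wsb1 1.67 in the hepatocyte line and 1.49 in the macrophage line and that of Hspa4l -1.01 in the hepatocyte line and -1.62 in the macrophage line. Each of these genes had the same sign in both lines. The growth hormone target Igf1 stood at 1.600 in the hepatocyte line and -1.15 in the macrophage line, Socs2 at 1.997 in the hepatocyte line and 0.25 in the macrophage line, Cyp2c69 at 3.49 in the hepatocyte line and 0.33 in the macrophage line and C3 at 0.77 in the hepatocyte line and -0.87 in the macrophage line. For Igf1 and C3, called in the fit to the 8 libraries alone, the sign differed between the pools, where line and pool cannot be told apart. Hamp, also of that fit, had 189 CPM at ZT20 and 124 CPM at ZT15 in the hepatocyte line. In the macrophage line Hamp had 104 CPM at ZT20 and 130 CPM at ZT15. Further genes of that fit with unlike signs included Acaa1b, Slco1a4, Cyp2b9, Cyp3a25, Gsta2, Gys2, Pex11a and Slc3a1. Of the 825 genes of that fit, 796 had the same sign in the pools of the hepatocyte line and 751 in those of the macrophage line, beside 8990 and 8202 of all 12942 genes tested.

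**Figure D5:**
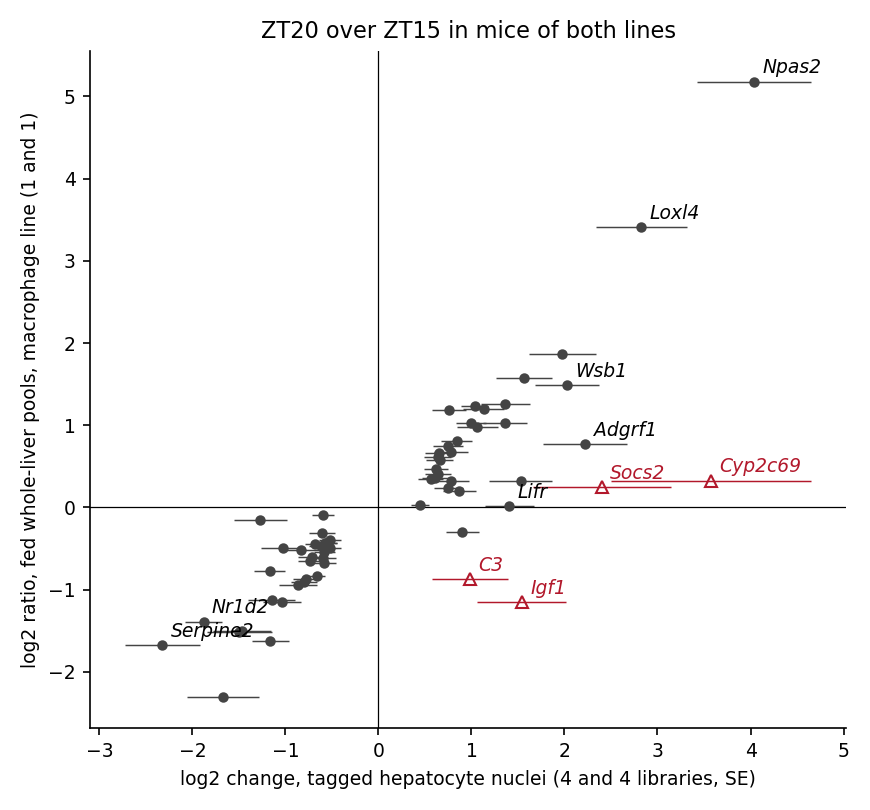
Log2 change of ZT20 over ZT15 in tagged hepatocyte nuclei (horizontal, with SE, 4 libraries per time) against the log2 ratio of the unpurified pools of the macrophage line (vertical, 1 pool per time) for the 59 called genes (points) and for Igf1, Socs2, Cyp2c69 and C3 (open triangles), which were called in the fit to the 8 libraries alone. Usp6nl, at 0.90 and -0.30, is the 1 called point with opposite signs.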

How the data were processed

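Nuclear RNA was sequenced from tagged hepatocyte nuclei (32 libraries), tagged macrophage nuclei (32) and unpurified liver nuclei (16 pools of 4 mice), per the labels. The authors deposited raw counts of reads over whole gene bodies, for 20105 genes in each of 80 libraries. STAR 2.4.2a, DESeq2 1.24.0 and mm10 are named in the submitters' processing notes. No source used here gives the counting tool or says whether the strand of the stranded libraries was used, so reads of overlapping genes and of close paralogs (the Cyp2b, Cyp2c, Cyp3a, Gst and Gbp families among them) cannot be told apart. The deposited tables of gene subsets were not used.

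The test of counts was run with edgeR 4.0.16 under R 4.3.3: filterByExpr (count minimum 10, total minimum 15), TMM scaling, a robust quasi-likelihood F test and Benjamini-Hochberg adjustment over all genes tested at 0.05, with a standard error taken from the F statistic. The contrast of ZT20 over ZT15 and its difference from fasted mice came from 1 fit to the 32 hepatocyte libraries, and macrophage contrasts from 1 fit to 64 tagged libraries. Pools were compared as log2 ratios of CPM with a prior count of 2, without a test. The code was tested on simulated data. The members, the 31 gene lists and the 9 marker lists were chosen with earlier results of these data known.

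The genes named are the 10 highest and 10 lowest called genes that average 1 CPM or more, with a described symbol and no overlap of the groups, all measured clock genes, up to 4 called members per list, and the 4 highest and 4 lowest differences from fasted mice. List members called in the fit to the 8 libraries alone were added by the same rule after the data were seen. Ppard entered as a called list member. In the macrophage comparison 2 genes passed the rule. Some genes that the rules chose are not reported here.

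Replicate numbers follow accession order and pair no libraries. The library numbers fall into 3 runs, and the run was tried as a replicate block. The alternatives were DESeq2 1.42.0, median-ratio (RLE) and upper quartile scaling, no filter, fits to the 16 fed and to the 8 libraries, and each library left out in turn. Promoter windows are from RefSeq (GRCm38.p6). Intervals from these depths cover counting error only, and were not needed for single genes, whose error is the spread over libraries.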

Additional observations from a re-analysis of the deposited data

Results flagged for a closer look

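Of 200 groups of 4 libraries examined over 100 named genes, 11 held 1 library whose gap to the nearest other, divided by the range of the group, exceeded Dixon's 95% critical value for 4 samples. Chance gives about 1 in 20 such groups, which is close to this number. Only the fed ZT20 and ZT15 groups were examined in this way, and the fasted groups were not. ZT15 replicate 1 was the high library for Agxt (0.88704), Cry1 (0.84275), Ndrg1 (0.94544) and Npas2 (0.88763). ZT15 replicate 4 was high for Errfi1 (0.86837), ZT15 replicate 2 low for Wsb1 (0.86374) and ZT15 replicate 3 low for Nr1h2 (0.92545). At ZT20, replicate 2 was high for Bmp7 (0.88482) and Gstm3 (0.96404), replicate 1 was high for Rora (0.90549) and replicate 3 low for Nr1d2 (0.82902). For Npas2 the call was kept without ZT15 replicate 1.

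The change of ZT20 over ZT15 differed between fed and fasted hepatocytes, by edgeR's test of the difference itself, for 28 of the named genes. Fed less fasted, the log2 difference was positive for Abcg8 (0.99), Adgrf1 (3.54), Cyp2c40 (3.72), Cyp2c69 (6.65), Gbp10 (3.81), Gbp7 (1.98), Igf1 (2.24), Lbp (1.76), Lifr (2.50), Neb (3.25), Ppard (0.93), Sds (2.26), Slc22a26 (3.86), Socs2 (3.47), Usp18 (1.91), Wsb1 (2.52) and Zbp1 (2.41). It was negative for Cyp2c55 (-3.20), Cyp3a11 (-2.49), Cyp3a25 (-2.23), Dnajb11 (-1.42), Ephx1 (-3.25), Gsta1 (-3.74), Gstm3 (-4.05), Hspa4l (-1.67), Igf2bp2 (-1.89), Nrp2 (-1.54) and P4ha2 (-1.54). Replicate 2 of the fasted 3 h group stood far above its group for some of these genes. It had 26.3 CPM of Socs2, against 1.15 to 2.28 CPM in the other replicates. For Igf1 it had 1571 CPM, against 491 to 762 CPM, and for Slc22a26 175 CPM, against 22.9 to 45.8 CPM. The differences of Socs2 and Igf1 were not examined without that library. Between hepatocytes and macrophages of fed mice the step differed for Igf2bp2 (-2.27) and Usp6nl (1.14).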

How the results depend on the processing

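No named gene with a call changed its direction under any alternative run, but the balance of higher and lower calls turned under upper quartile scaling, which gave 347 higher and 385 lower for fed less fasted and 464 and 350 in the fit to the 8 libraries. The counts of higher and lower genes at ZT20 in the fit to 32 libraries, 30 and 29, were 138 and 129 with DESeq2, 395 and 430 in the fit to the 8 libraries and 95 and 111 in the fit to the 16 fed libraries. With 1 library left out they ran from 10 to 24 higher and from 9 to 26 lower. The counts of the fit to the 8 libraries were 699 and 756 with DESeq2 and, with 1 library left out, 139 to 353 higher and 168 to 425 lower. The fed less fasted counts, 383 and 317, were 591 and 509 with DESeq2 and 588 and 674 in a fit to the 16 contrasted libraries, and with 1 library left out 248 to 537 and 191 to 392. The macrophage counts, 32 and 107, were 88 and 148 with DESeq2, and with 1 library left out 6 to 36 and 24 to 164. For hepatocyte less macrophage, 2 and 1 became 5 and 3 with DESeq2 and 0 to 3 and 0 to 1 with edgeR and 1 library left out, where 270 to 471 genes were higher and 170 to 284 lower at an unadjusted p under 0.05. The other scalings and the fit without a filter kept every count of the fit to 32 libraries within 1.5 times.

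The labels pair no replicates. With the library-number run as a replicate block the counts were 31 higher and 23 lower in the fit to 32 libraries, 386 and 305 for fed less fasted, and 288 and 295 in the fit to the 8 libraries. Under the block, in the fit to 32 libraries, Dact1 (adjusted p = 0.0518) and Nrp2 (adjusted p = 0.0507) lost their calls, as did the fed less fasted difference of Gsta1. In the fit to the 8 libraries the block ended the calls of Arntl (0.0575), Npas2 (0.0687), Gys2 (0.0552), Slc37a4 (0.0734), Sdf2l1 (0.0578), Dnajb11 (0.055), Sel1l (0.0876), Canx (0.0928), Chordc1 (0.0932), Igf1 (0.0833), C3 (0.0633), Usp18 (0.0895), Cyp2b10 (0.0666), Gsta2 (0.0641), Slc3a1 (0.0685), Ces1g (0.0585), Cox5b (0.0732) and Psmc3 (0.0641), with the adjusted p in parentheses, including all 4 ER chaperones. Without the filter Col27a1, Dact1 and Nrp2 lost theirs, as did the difference of Gsta1, and in the fit to the 8 libraries without the filter so did Cyp2c69 (0.0589), Cyp2c67 (0.0583), Cyp3a11 (0.0609), Cyp3a25 (0.0855), Igf1 (0.108), C3 (0.0747), Abcg8 (0.0601), Ces1g (0.051), Cox5b (0.0757) and Psmc3 (0.0562). Upper quartile scaling ended the calls of Slc37a4 (0.0714), Sel1l (0.0694), Canx (0.0697) and Chordc1 (0.057) there. In the fit to the 16 fed libraries Dact1 lost its call. The cause of these shifts was not tested. Depth limits genes near 1 CPM, such as Rgs16 and Nr1d1, most.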

Other observations

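Of the genes called in the fit to 32 libraries and not described above, the 4 named here were chosen after their values were seen. Dtnb, which encodes a dystrobrevin of the dystrophin complex, averaged 173 ± 4.96 CPM at ZT20 and 287 ± 28.1 CPM at ZT15 (SD, n = 4 each; log2 fold change -0.73 ± 0.14, adjusted p = 0.00662). Golim4, a Golgi membrane protein of endosome-to-Golgi transport, averaged 179 ± 18.2 CPM at ZT20 and 287 ± 21.8 CPM at ZT15 (SD, n = 4 each; log2 fold change -0.68 ± 0.11, adjusted p = 0.00175). Vac14, the scaffold of the kinase that makes the endolysosomal lipid PI(3,5)P2, averaged 122 ± 12.4 CPM at ZT20 and 209 ± 22.8 CPM at ZT15 (SD, n = 4 each; log2 fold change -0.78 ± 0.13, adjusted p = 0.00327). None of these 3 genes overlapped between the times. Higher at ZT20 was Abca8b, a lipid transporter of the ABC family, with 337 ± 48.4 CPM at ZT20 and 154 ± 15.7 CPM at ZT15 (SD, n = 4 each; log2 fold change 1.13 ± 0.22, adjusted p = 0.0108). In fasted mice Dtnb, which fell in fed mice, rose by 0.64 ± 0.13 (adjusted p = 0.00191).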
